A study of Sus scrofa with 39 samples.

Results

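Glucocorticoids act on cells through the glucocorticoid receptor, a hormone-activated transcription factor that is held ready for its ligand by heat-shock proteins and their co-chaperones. Once bound, the receptor moves to the nucleus, switches on genes that dampen inflammation and adjust energy use, and restrains many inflammatory genes. Transcripts of genes that it switches on are widely read in blood as signs of glucocorticoid exposure. Some of these genes, FKBP5 among them, make proteins that act back on the receptor. Nearly all white blood cells carry the receptor, and cortisol normally rises in illness and around birth.

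The genes described here are 9 genes of this response. They include the receptor gene NR3C1, its feedback inhibitor FKBP5, and the insulin and salt-balance signalling genes IRS2 and SGK1. The others are the anti-inflammatory effectors ANXA1, TSC22D3 and DUSP1, and the transcription factor genes KLF9 and ZBTB16. All 9 were picked by their Ensembl pig gene symbol. Of the 9, 8 had a row among the 25880 genes of the count files, and all 8 passed the filter on low counts that left 10731 genes for testing; TSC22D3 was not analysed here. FKBP5 is known as a marker gene from work on these same piglets, so its difference here is not independent evidence. The other genes were also chosen with earlier results of these data known.

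The samples were whole blood from 39 preterm piglets fed formula, examined for necrotizing enterocolitis (NEC), an inflammation and death of the wall of the immature gut, when the animals were killed on day 5. The labels do not say on which day blood was taken. CON was 19 piglets without NEC, NEC_Mild was 11 piglets and NEC_Severe was 9; all groups were formula-fed, and no drug, hormone or gene change is named for any of them. Sex was labelled female in 19 piglets and male in 20, and libraries fell into 3 labelled batches, with 7 CON, 4 mild and 3 severe piglets in batch 1, 5 CON and 4 severe in batch 2, and 7 CON, 7 mild and 2 severe in batch 3. The question behind the comparisons was which blood transcripts mark NEC early.

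Read counts on genes ranged from 12.82 to 28.96 M per library, of which globin genes of red cells took 24.14 to 67.97%. Levels are given in CPM, a gene's counts scaled to a common library size after TMM scaling (a correction for libraries dominated by a few genes). Libraries stood apart in 3 ways. NEC_Severe replicate 9 detected the fewest genes, 10674 against a median of 12829. CON replicate 16 had the lowest globin share, 24.14%, and the largest scaling factor, 4.094. NEC_Severe replicate 2 was labelled male but had 1 count on the Y-linked genes KDM5D and EIF1AY together, where the other 19 males had 14 to 357 and the 19 females 0 to 5, so that its sex label or identity is in doubt. Markers of white cells were present: no listed marker of neutrophils, monocytes, T cells or B cells that had a row was at 0 in every library.

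FKBP5, IRS2 and ANXA1 were higher in severe NEC than in controls, each by about 2-fold, while the other 5 genes did not pass the test in that comparison, and none passed in mild NEC. An edgeR quasi-likelihood test with batch and sex in the model called 3 of the 8 genes higher in NEC_Severe than in CON and 0 lower at an adjusted p (FDR, Benjamini-Hochberg over all genes tested) under 0.05. Over all genes, 2.09% were called in that comparison, 1.07% higher and 1.02% lower. At an unadjusted p under 0.05 the members had 3 of 8 where all genes had 18.6%. The genes were chosen with earlier results of these data known, so these shares are not independent evidence of a difference. In whole blood, fewer cells of a type and less RNA per cell cannot be told apart.

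**Figure D1:**
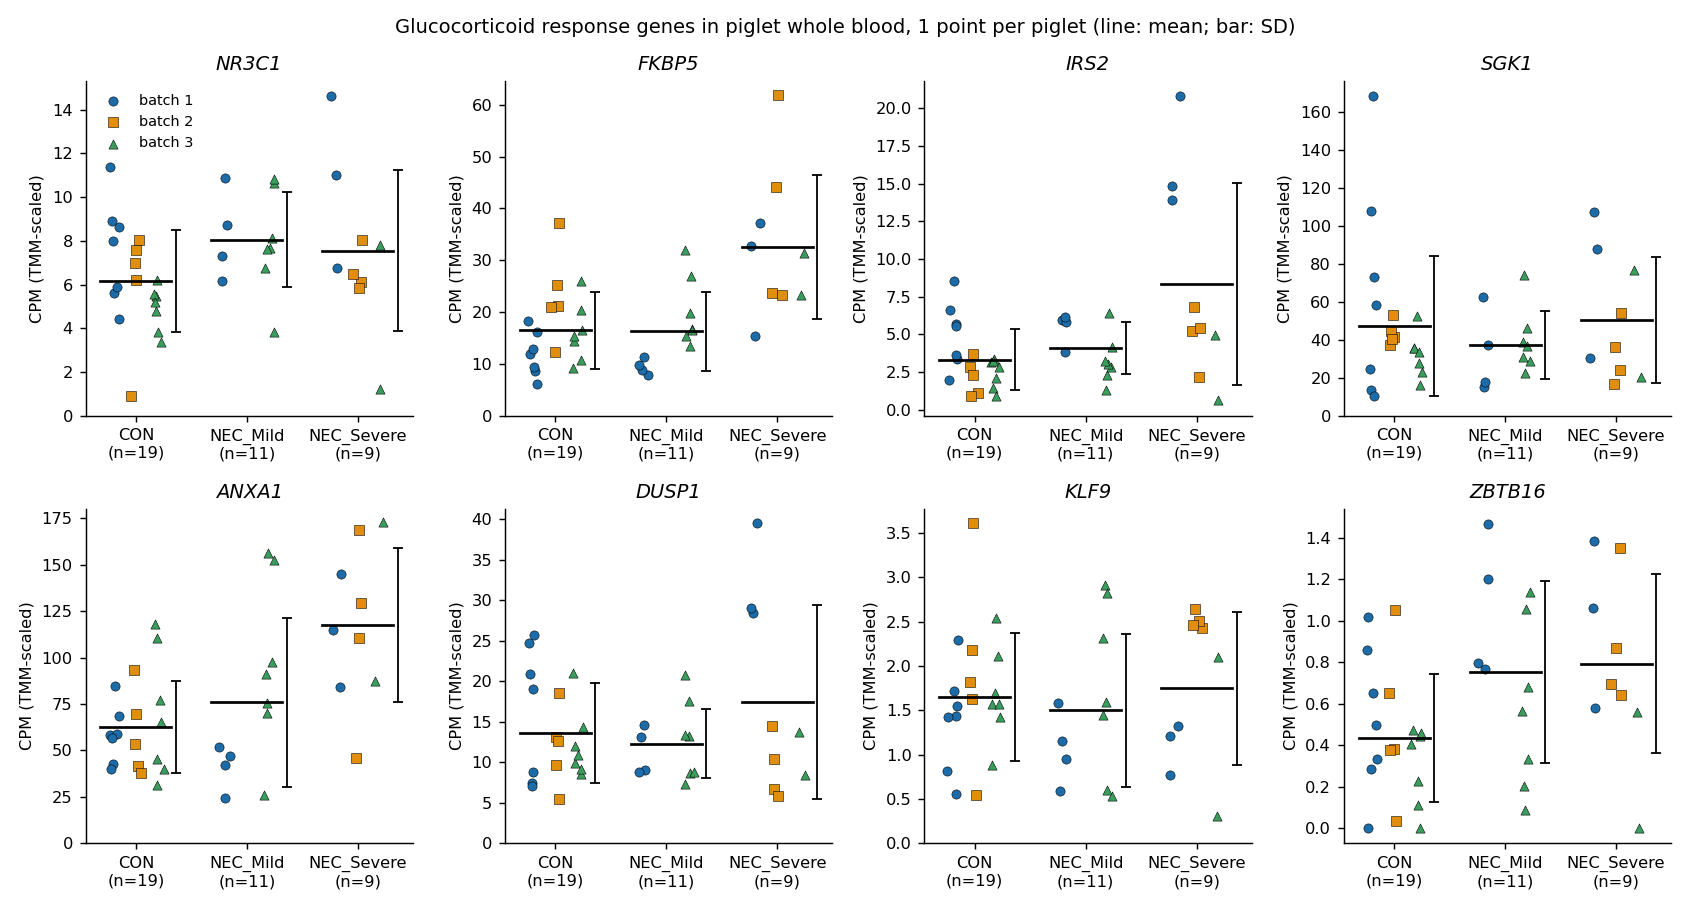
Level of each of the 8 genes in every piglet (CPM on TMM-scaled library sizes, linear axis) by group, with the batch shown by colour and symbol; the line is the group mean and the bar beside it 1 SD. FKBP5 and ANXA1 sat higher in NEC_Severe with overlap, while the high IRS2 and DUSP1 values were the 3 severe piglets of batch 1.

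FKBP5 (ENSSSCG00000001549, chr7:31441764-31550704 in RefSeq's Sscrofa11.1 annotation) encodes an HSP90 co-chaperone that lowers the receptor's affinity for cortisol and is itself induced by the receptor, a short negative feedback loop. Its level in CON piglets ran from 6.18 to 37.1 CPM with a median of 15.4. In NEC_Mild it ran from 7.79 to 31.9 CPM with a median of 15.3. In NEC_Severe it was 37.2, 32.8 and 15.3 CPM in batch 1, 23.2, 44.2, 61.8 and 23.6 in batch 2, and 23.3 and 31.4 in batch 3. Mild and control piglets thus covered nearly the same range, whereas 8 of the 9 severe piglets lay above the control median and 3 above the highest control, so that the groups overlapped. Group means were 16.4 ± 7.52 CPM in CON (SD, n = 19), 16.3 ± 7.57 in NEC_Mild (SD, n = 11) and 32.6 ± 14 in NEC_Severe (SD, n = 9). Severe piglets were higher than controls by 0.94 ± 0.20 on the log2 scale (standard error; edgeR adjusted p = 0.0167), the 21st smallest p of all genes tested.

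IRS2 (ENSSSCG00000034763, chr11:76626158-76654639) encodes an adaptor that relays the insulin receptor's signal to PI3-kinase. Its level ran from 0.914 to 8.57 CPM in CON, with a median of 3.15, and from 1.33 to 6.42 CPM in NEC_Mild, with a median of 3.81. In NEC_Severe the batch 1 piglets were at 20.8, 14.9 and 13.9 CPM, those of batch 2 at 5.26, 6.83, 5.42 and 2.18, and those of batch 3 at 4.96 and 0.621. The 3 severe piglets of batch 1 were higher than every other library of the study, and the lowest library of the study, with 6 counts, was NEC_Severe replicate 9. IRS2 was higher in severe than in control piglets by 1.18 ± 0.27 (log2; edgeR adjusted p = 0.0192), and by 1.37 ± 0.24 (adjusted p = 0.00272) without replicate 9.

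ANXA1 (ENSSSCG00000005267, chr1:226414200-226431963) encodes annexin A1, a phospholipid-binding protein that limits the recruitment of neutrophils through formyl peptide receptors and is abundant in neutrophils and monocytes. It ran from 31.2 to 118 CPM in CON (median 58.5), from 24.6 to 156 in NEC_Mild (median 70.3) and from 45.9 to 173 in NEC_Severe (median 115). Of the 9 severe piglets, 8 lay above the control median and 4 above the highest control. The difference of NEC_Severe from CON was 0.95 ± 0.25 (log2; edgeR adjusted p = 0.0361). This call was the most fragile of the 3: it was lost in 11 of the 39 fits that left out 1 piglet, with log2 differences of 0.85 to 1.05 across those 39.

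All 3 calls were lost when NEC_Severe replicate 2, the library with the doubtful sex label, was left out: edgeR then gave 0.81 ± 0.21 for FKBP5 (adjusted p = 0.0698), 1.08 ± 0.29 for IRS2 (0.0698) and 0.92 ± 0.27 for ANXA1 (0.0965), and 12 genes in place of 224 were called over the whole table. Leaving out NEC_Severe replicate 1 ended the calls of IRS2 (1.06, adjusted p = 0.0641) and ANXA1 (0.87, adjusted p = 0.0928). Surrogate variables (unlabelled sources of variation estimated from the data) in the model also ended all 3 calls, with FKBP5 at 0.28 (adjusted p = 0.923), IRS2 at 0.56 (0.777) and ANXA1 at 0.08 (0.954). Leaving out batch 1 or batch 2 ended them too. Without NEC_Severe replicate 9 or CON replicate 16 all 3 genes were still called, with FKBP5 at 0.93 in both fits.

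The receptor gene itself, NR3C1 (ENSSSCG00000014401, chr2:144822937-144956451), ran from 0.918 to 11.4 CPM in CON (median 5.89), from 3.83 to 10.9 in NEC_Mild (median 7.66) and from 1.24 to 14.6 in NEC_Severe (median 6.77). Of the 11 mild piglets, 10 lay above the control median, and within batch 3 a total of 6 of the 7 mild piglets lay above the highest control. The fitted differences were 0.43 ± 0.23 for NEC_Mild (edgeR adjusted p = 0.64) and 0.24 ± 0.23 for NEC_Severe (adjusted p = 0.613), neither of which passed.

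DUSP1 (ENSSSCG00000016991, chr16:51457924-51461095) encodes a phosphatase that switches off the stress-activated MAP kinases. It ran from 5.44 to 25.7 CPM in CON (median 12) and from 7.38 to 20.8 in NEC_Mild (median 13.1). The severe piglets of batch 1 were at 39.6, 28.4 and 29.0 CPM, above every other library, while the severe piglets of batches 2 and 3 were at 5.86 to 14.5 CPM, inside the control range. Pooled over batches, the difference of NEC_Severe from CON was 0.27 ± 0.24 (edgeR adjusted p = 0.598).

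SGK1 (ENSSSCG00000021443, chr1:29625786-29753619), a kinase related to AKT that regulates sodium transport, varied most widely among the controls: 10.1 to 168 CPM, with a median of 37.0. It ran from 15.2 to 73.9 CPM in NEC_Mild and from 16.5 to 107 in NEC_Severe, within the control range. The difference of NEC_Severe from CON was 0.10 ± 0.34 (edgeR adjusted p = 0.913).

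The transcription factor genes were lowly expressed. KLF9 (ENSSSCG00000021646, chr1:223723613-223747661), a zinc-finger factor induced by glucocorticoids and thyroid hormone, ran from 0.551 to 3.61 CPM in CON, 0.531 to 2.92 in NEC_Mild and 0.31 to 2.64 in NEC_Severe, and did not pass in any comparison (NEC_Severe minus CON, -0.08 ± 0.28, edgeR adjusted p = 0.913). The 4 severe piglets of batch 2 lay within 2.42 to 2.64 CPM, a narrow band beside the 0.551 to 3.61 CPM of the 5 controls of that batch. ZBTB16 (ENSSSCG00000030095, chr9:41639536-41839254), also known as PLZF and a regulator of innate-like lymphocytes, rested on 0 to 70 counts per library. Its group means were 0.435 ± 0.309 CPM in CON (SD, n = 19), 0.754 ± 0.438 in NEC_Mild (SD, n = 11) and 0.794 ± 0.433 in NEC_Severe (SD, n = 9), and 8 of 11 mild and 8 of 9 severe piglets lay above the control median. It had 0 counts in CON replicates 6 and 14 and in NEC_Severe replicate 9, which allow levels of up to 0.488, 0.363 and 0.31 CPM (3 counts, counting error only). ZBTB16 differed from CON by 0.99 ± 0.39 in NEC_Mild (edgeR adjusted p = 0.565) and by 0.69 ± 0.39 in NEC_Severe (adjusted p = 0.339).

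**Figure D2:**
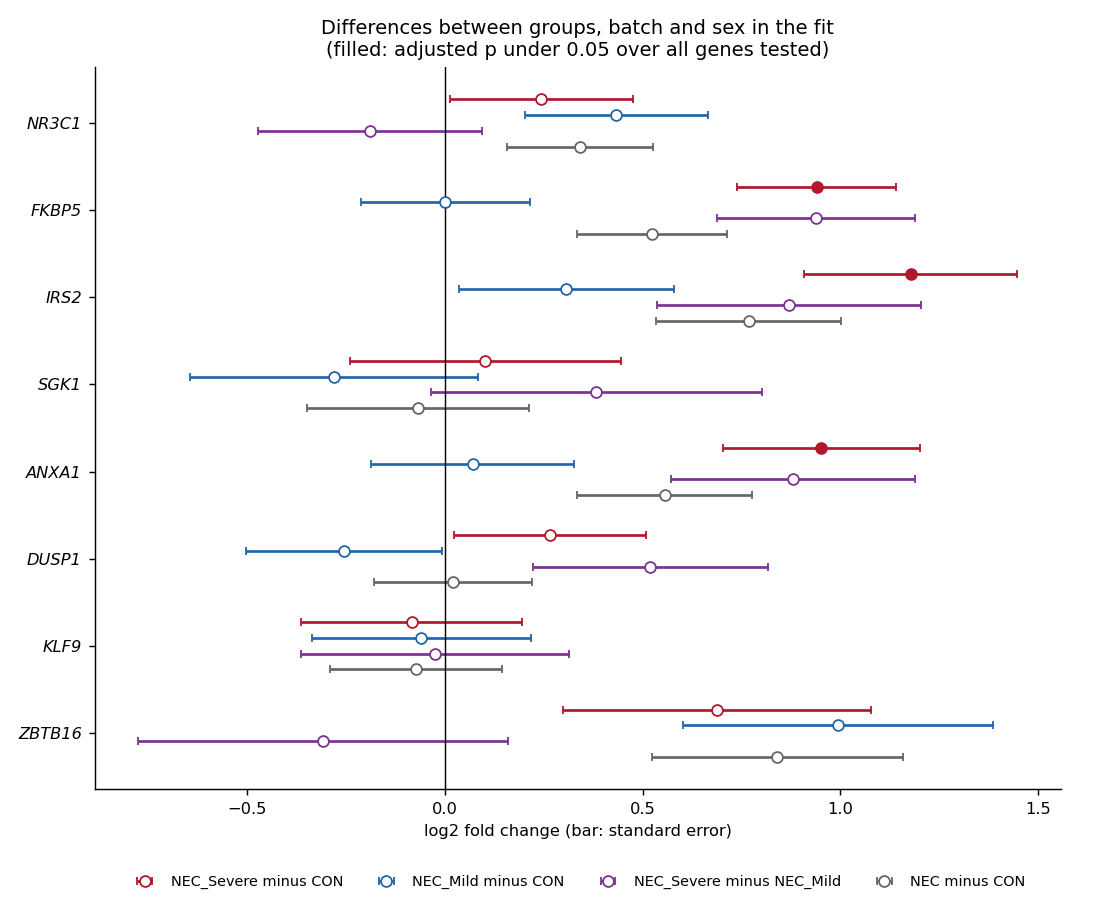
Fitted log2 fold change of each gene (dot) with its standard error (bar) in 4 comparisons, from edgeR fits with batch and sex; filled dots have an adjusted p under 0.05. The filled dots are FKBP5 (0.94), IRS2 (1.18) and ANXA1 (0.95) in NEC_Severe minus CON.

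In mild NEC none of these genes passed the test. The same edgeR fit called 0 of the 8 genes in NEC_Mild against CON, as it called 0% of all genes. At an unadjusted p under 0.05 it had 1 of 8 (ZBTB16, p = 0.0153), where all genes had 7.84%. DESeq2 and limma voom with sample weights also called 0 of the 8. FKBP5 differed by 0.0018 ± 0.21 and ANXA1 by 0.07 ± 0.26 on the log2 scale, and the sign of both turned with voom and without batch 3. IRS2 differed by 0.31 ± 0.27, DUSP1 by -0.25 ± 0.25 and SGK1 by -0.28 ± 0.36.

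Severe and mild piglets were also compared directly. FKBP5 was 0.94 ± 0.25 higher in NEC_Severe than in NEC_Mild (edgeR adjusted p = 0.095, unadjusted p = 0.000572), ANXA1 0.88 ± 0.31 (adjusted p = 0.248) and IRS2 0.87 ± 0.33 (adjusted p = 0.285). DUSP1 differed by 0.52 ± 0.30 (edgeR adjusted p = 0.4535), SGK1 by 0.38 ± 0.42, NR3C1 by -0.19 ± 0.28, ZBTB16 by -0.31 ± 0.47 and KLF9 by -0.02 ± 0.34. All 9 severe piglets lay above the mild median of FKBP5, and 4 above the highest mild piglet. In this comparison edgeR called 0 of the 8 genes, beside 0.112% of all genes. Of the 8, 3 had an unadjusted p under 0.05, where 12.6% of all genes had one. DESeq2 called 1, FKBP5 with an adjusted p of 0.0318, and limma voom called FKBP5 (adjusted p = 0.0142), IRS2 (0.0208) and ANXA1 (0.0115). Voom called 839 of all genes in this comparison, where edgeR called 12. The count of all genes called by DESeq2 is not reported here. The comparisons with CON share the same 19 controls and are not independent of each other.

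With mild and severe piglets joined, the 20 NEC piglets differed from the 19 controls by 0.52 ± 0.19 for FKBP5 (edgeR adjusted p = 0.211), 0.77 ± 0.23 for IRS2 (0.167), 0.56 ± 0.22 for ANXA1 (0.243), 0.84 ± 0.32 for ZBTB16 (0.23). The value was 0.34 ± 0.18 for NR3C1 (0.399), 0.02 ± 0.20 for DUSP1, -0.07 ± 0.22 for KLF9 and -0.07 ± 0.28 for SGK1. EdgeR called 0 of the 8, and 0% of all genes. Of the 8, 4 had an unadjusted p under 0.05, beside 14.4% of all genes. DESeq2 and voom called 0 of the 8, where voom called 123 of all genes.

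Within batches, the severe-minus-control values of FKBP5 and ANXA1 were above 0 in the 3 batches, also with any 1 piglet left out, but their size in a batch rested on single piglets. IRS2 was near 0 in batch 3, and DUSP1 was above 0 in batch 1 and below 0 in batch 2. FKBP5 differed by 1.24 ± 0.33 in batch 1, 0.69 ± 0.33 in batch 2 and 0.77 ± 0.38 in batch 3 (log2). It was 1.02 in batch 1 without NEC_Severe replicate 2, 0.42 in batch 2 without replicate 6 and 0.40 in batch 3 without replicate 9. ANXA1 differed by 0.97 ± 0.40, 0.94 ± 0.40 and 0.90 ± 0.46. In batch 3, with its 2 severe piglets, ANXA1 was 0.30 without replicate 8 and 1.36 without replicate 9. IRS2 differed by 1.64 ± 0.41 in batch 1 and 1.17 ± 0.42 in batch 2 but by 0.13 ± 0.53 in batch 3, where the 2 severe piglets disagreed. The value was 0.88 without NEC_Severe replicate 9 and -1.87 without replicate 8. DUSP1 differed by 0.97 ± 0.36 in batch 1, -0.34 ± 0.36 in batch 2 and -0.18 ± 0.44 in batch 3. The batch 3 value turned to 0.05 without NEC_Severe replicate 9 and to 0.0081 without the 4 controls of the BKDL library series.

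No gene passed within 1 batch by edgeR: 0 of 8 in batch 1 (4 of 8 at an unadjusted p under 0.05), 0 of 8 in batch 2 (3 of 8) and 0 of 8 in batch 3 (1 of 8), beside 0.149%, 0.00932% and 2.52% of all genes called and 12.9%, 11.5% and 20.3% at that unadjusted p. The smallest adjusted p were those of IRS2 (0.0933) and FKBP5 (0.105) in batch 1. FKBP5 was called in batch 1 in 1 of the 39 fits that left out 1 piglet (1.56, edgeR adjusted p = 0.0371, without NEC_Severe replicate 3). A joint edgeR test of whether the severe-minus-control difference varied among batches called 0 of the 8 genes, beside 0.103% of all genes, with 1 of 8 at an unadjusted p under 0.05 where 16.1% of all genes had one, and with the lowest p for DUSP1 (p = 0.0336, adjusted p = 0.276). FKBP5 had an adjusted p of 0.73, IRS2 of 0.407 and ANXA1 of 0.999. The values of the remaining genes differed in sign between batches. NR3C1 read 0.54, 0.14 and -0.18 in batches 1, 2 and 3, KLF9 -0.36, 0.34 and -0.50, SGK1 0.20, -0.42 and 0.65, and ZBTB16 0.95, 0.81 and -0.07. The batch 3 values below 0 rested on NEC_Severe replicate 9, without which NR3C1 was 0.57, ZBTB16 0.66 and KLF9 0.20. Without replicate 8, SGK1 in batch 3 was -0.75, and without replicate 2 it was -0.13 in batch 1. Without CON replicate 10, NR3C1 in batch 2 was -0.13.

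Mild piglets occurred in batches 1 and 3 and their differences from the controls of their batch had opposite signs for FKBP5, ANXA1 and SGK1. FKBP5 read -0.32 ± 0.32 in batch 1 and 0.26 ± 0.27 in batch 3, ANXA1 -0.49 ± 0.39 and 0.46 ± 0.34, and SGK1 -0.96 ± 0.54 and 0.35 ± 0.46; DUSP1 read -0.50 ± 0.35 in batch 1 and 0 in batch 3. Without the 4 BKDL controls, the batch 3 values were -0.0895 for SGK1, then of the same sign as in batch 1, 0.08 for FKBP5 and 0.31 for ANXA1. In batch 1 all 4 mild piglets were at or under 11.3 CPM of FKBP5 and all 3 severe piglets at or over 15.3. They did not overlap, nor did the mild and severe piglets of that batch for ANXA1, IRS2 and DUSP1. How many of all genes had no overlap there was not counted, so this is not a result about these genes. In the severe-minus-mild comparison within batch 1, edgeR called 0 of the 8 genes (4 of 8 at an unadjusted p under 0.05), beside 0.214% of all genes, and FKBP5 had the smallest p (1.56 ± 0.38, adjusted p = 0.0601). The edgeR test of batch 3 minus batch 1 called 0 of the 8 genes, and 0% of all genes, with 0 of 8 at an unadjusted p under 0.05 where 6.33% of all genes had one. ZBTB16 was above the controls in both batches (1.09 ± 0.64 and 0.84 ± 0.56), as were NR3C1 (0.16 ± 0.36 and 0.60 ± 0.31) and IRS2 (0.13 ± 0.41 and 0.36 ± 0.36). The IRS2 value was -0.02 in batch 1 without CON replicate 6, and in batch 3 it was 0.15 without NEC_Mild replicate 7 and 0.74 without the BKDL controls. The batch 3 value of ZBTB16 was 0.44 without the BKDL controls. None of these was called: edgeR called 0 of the 8 genes in either batch (0 of 8 at an unadjusted p under 0.05), beside 0% of all genes in batch 1 and 0.0373% in batch 3.

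**Figure D3:**
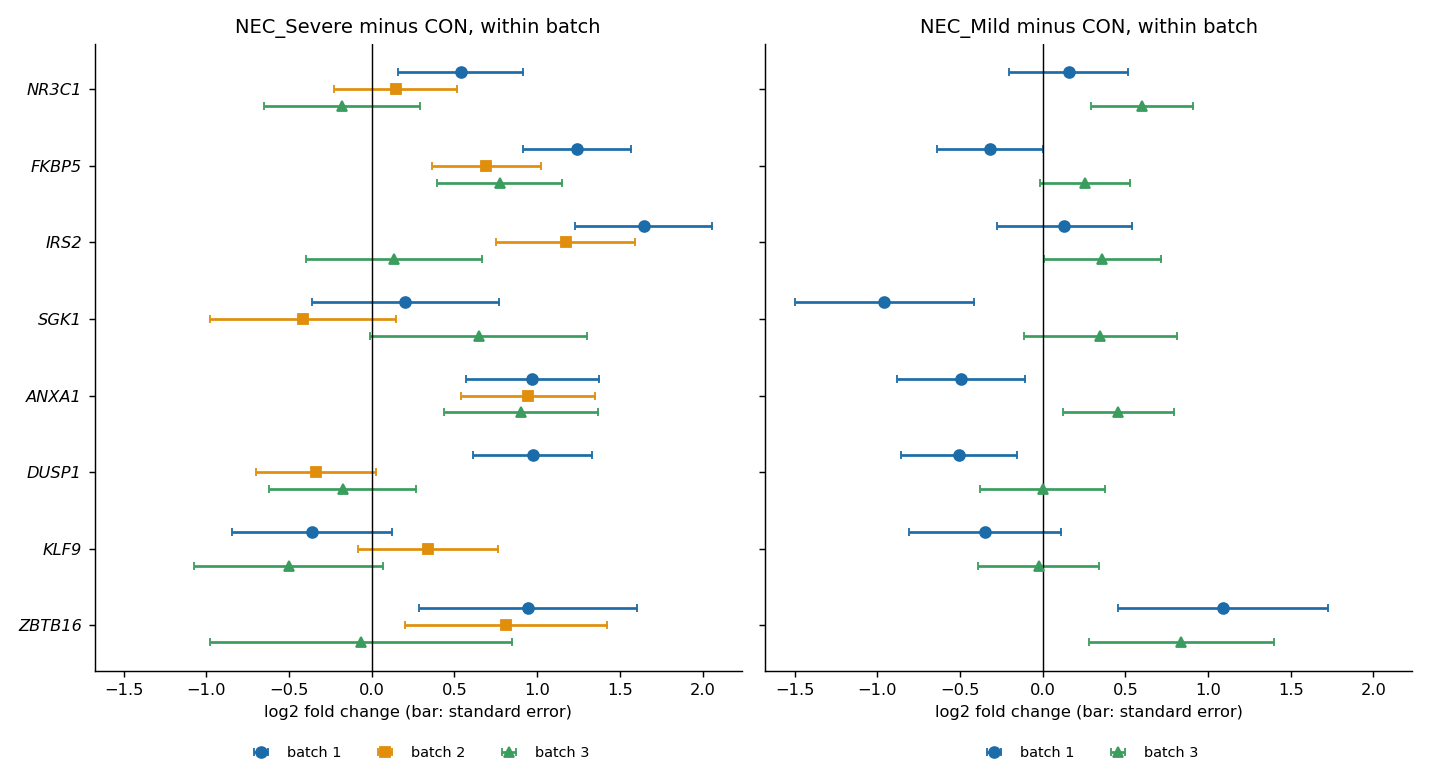
Log2 fold change against the controls of the same batch (dot) with its standard error (bar), for severe piglets in 3 batches and mild piglets in the 2 batches that hold them. FKBP5 (0.69 to 1.24) and ANXA1 (0.90 to 0.97) lay above 0 in all 3 batches for severe piglets, but in batch 3 FKBP5 fell to 0.40 and ANXA1 to 0.30 when 1 severe piglet was left out.

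Levels in the control piglets alone were also compared between batches. FKBP5 was at 11.9 ± 4.23 CPM in the controls of batch 1 (SD, n = 7), 23.3 ± 9.06 in batch 2 (SD, n = 5) and 16.1 ± 5.73 in batch 3 (SD, n = 7), and IRS2 at 5.05 ± 2.23, 2.17 ± 1.16 and 2.44 ± 0.964 CPM. The controls of batch 2 exceeded those of batch 1 by 0.97 ± 0.29 for FKBP5 (log2; edgeR adjusted p = 0.0695), beside a severe-minus-control difference of 0.94. They differed from batch 1 by -1.17 ± 0.38 for IRS2 (adjusted p = 0.0988); 0 of the 8 were called there, beside 2.99% of all genes. The edgeR F test over the 3 batches called 0 of the 8 genes, beside 3.32% of all genes, and 2 of 8 had an unadjusted p under 0.05 (FKBP5, p = 0.011, and IRS2, p = 0.00523), where 18.1% of all genes had one. For FKBP5 the adjusted p of this F test was 0.133. With 1 control left out it ran from 0.0748 (without CON replicate 1) to 0.437 (without CON replicate 11). Replicate 11 was the highest control of batch 2, at 37.1 CPM. Between batch 3 and batch 1 the differences were -1.04 ± 0.34 for IRS2 and -1.09 ± 0.46 for SGK1, with 0 of 8 called beside 2.16% of all genes. The 4 controls of the BKDL library series, all in batch 3, ran from 9.19 to 20.5 CPM of FKBP5, and the 3 other controls of that batch from 10.7 to 25.9; library series and group cannot be told apart for these 4, which are all controls.

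Ordered by mean level, the groups within batches ran for FKBP5 from severe piglets of batch 2 (38.2 ± 18.5 CPM), batch 1 (28.5 ± 11.6) and batch 3 (27.4 ± 5.75) through the controls of batch 2 (23.3 ± 9.06) to mild piglets of batch 1 (9.46 ± 1.52), and each neighbour in that order differed by less than the larger of the 2 SDs. For IRS2 the severe piglets of batch 1 (16.5 ± 3.72 CPM) were separated from the next group, the mild piglets of batch 1 (5.44 ± 1.09), by more than either SD and without overlap. The same held for DUSP1, with 32.3 ± 6.3 CPM in the severe piglets of batch 1 and 16.3 ± 8.24 in the controls of batch 1 that came next. The share of all genes separated in this way was not counted.

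No gene passed between males and females. The male-minus-female difference was below 0 for all 8 genes, from -0.49 ± 0.32 for ZBTB16 and -0.26 ± 0.17 for FKBP5 to -0.01 ± 0.30 for SGK1. EdgeR called 0 of the 8 (0 of 8 at an unadjusted p under 0.05), beside 0.121% of all genes called and 7.68% at that unadjusted p.

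Whether FKBP5 varied together with the other genes from piglet to piglet was examined within groups. Pearson's r and Spearman's rho of log2 CPM, centred on the batch mean, were computed for FKBP5 with each of the other 7 genes in each of the 3 groups, 21 pairs with permutations within batches, and 0 of the 21 had an adjusted permutation p under 0.05. Among the 19 CON piglets, FKBP5 and ZBTB16 had r = 0.58 (permutation p = 0.0171, adjusted p = 0.36) and rho = 0.71 (permutation p = 0.00243, adjusted p = 0.051), with r = 0.40 after the 2 piglets farthest from the FKBP5 median were left out. Among the 11 NEC_Mild piglets, FKBP5 and ANXA1 had r = 0.64 (permutation p = 0.062, adjusted p = 0.651) and rho = 0.66 (permutation p = 0.0426, adjusted p = 0.365), with r = 0.52 without the 2 farthest. Among the 9 NEC_Severe piglets, r lay between -0.14 (DUSP1) and 0.28 (ANXA1 and ZBTB16), and rho between -0.20 (DUSP1) and 0.58 (ZBTB16). For ZBTB16 the exact permutation p of rho was 0.0556 (adjusted p = 0.365), and r was 0.01 without the 2 farthest. KLF9 had rho = 0.52 (exact permutation p = 0.0694, adjusted p = 0.365) but r = 0.03. FKBP5 and NR3C1, which encode the inhibitor and its receptor, had r = 0.07 in CON, 0.42 in NEC_Mild and 0.11 in NEC_Severe.

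**Figure D4:**
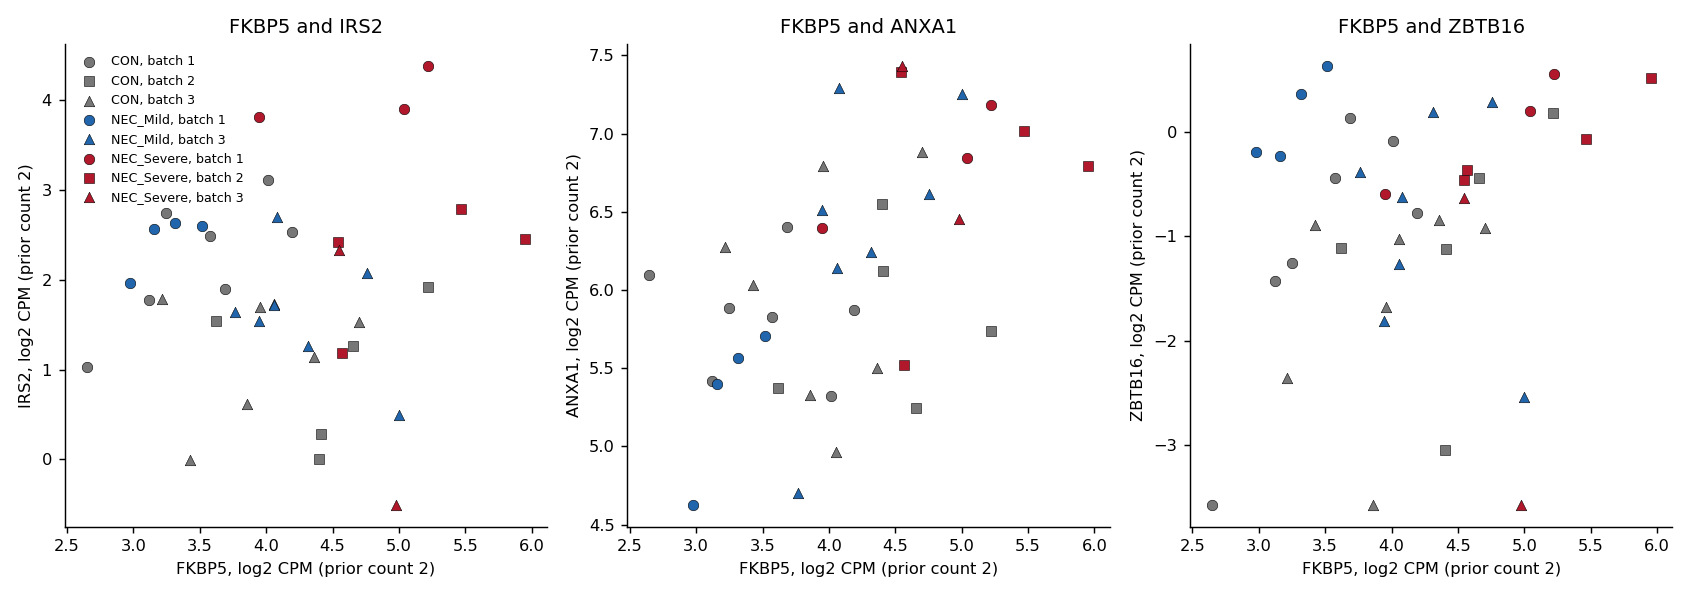
FKBP5 (x axis) against IRS2, ANXA1 and ZBTB16 (y axes), all in log2 CPM with a prior count of 2, 1 point per piglet, coloured by group and shaped by batch. In the IRS2 panel the 3 severe piglets of batch 1 lie highest, and no pair passed within a group after adjustment.

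Genes whose pattern over the 39 piglets was most like that of FKBP5 were ranked by Pearson's r of log2 CPM after batch means were removed, among the 3701 other genes with a symbol and a mean of at least 5 CPM, as a description with no test. The first 6 were MLXIP (r = 0.724), which encodes a glucose-sensing transcription factor, TMEM30A (0.666), a subunit of lipid flippases, SGMS1 (0.640), a sphingomyelin synthase, UBE3A (0.640), a ubiquitin ligase, NIBAN1 (0.634) and PTPRE (0.630), a tyrosine phosphatase. ANXA1 took place 71 with r = 0.528, NR3C1 place 1076 with 0.19, DUSP1 place 1353 with 0.116 and SGK1 place 1416 with 0.102; IRS2, KLF9 and ZBTB16 were under 5 CPM and were not ranked. Within the 19 CON piglets, where no group difference enters, the first 4 were TP53INP1 (0.771), a stress-response gene, ZDHHC20 (0.687), TM9SF4 (0.635) and MLXIP again (0.612), and ANXA1 was at place 1572 with r = 0.026.

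Other genes of the receptor's machinery were not called. Of 27 listed genes for chaperones, coregulators and hormone-converting enzymes, 22 were tested, and in NEC_Severe against CON 0 were called, 16 lay above 0 and 6 below, with a median of 0.075 log2 beside -0.045 over all genes. That comparison called 2.09% of all genes, so 0 calls in a list this short is not a result about these genes. The coactivator gene NCOA3 had the smallest p (0.49 ± 0.15, edgeR adjusted p = 0.0666). Values ran from -0.42 for FKBP4, the co-chaperone that acts opposite to FKBP5, to 0.81 for the corepressor gene NRIP1. Of 7 other immunophilin genes tested, 6 of the FKBP family and the cyclophilin gene PPID, 0 were called, beside the same 2.09% of all genes. FKBP15 had the smallest p (0.49 ± 0.14, adjusted p = 0.0517), and the list's median was -0.183, with 2 above 0 and 5 below.

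Other genes known to be induced by glucocorticoids were mostly not called. Of 62 listed, 51 were tested. In NEC_Severe against CON, 35 lay above 0 and 16 below, with a median of 0.223. Of the 51, 1 was called, CD163 (1.68 ± 0.42, edgeR adjusted p = 0.0302), beside 2.09% of all genes. CD163 is the haemoglobin scavenger receptor of monocytes and also stands in the monocyte list. Among classical targets named after their values were seen, the receptor tyrosine kinase gene MERTK read 1.15 (adjusted p = 0.0575), the decoy receptor gene IL1R2 1.13 (0.27) and NFKBIA, the NF-kappaB inhibitor gene, 0.68 (0.25). The clock gene PER1 read -0.20 (0.74), DDIT4 -0.15 (0.74), TXNIP -0.11 (0.82) and the chemokine receptor gene CXCR4 -0.57 (0.084). In NEC_Mild the same list had 17 genes above 0, 34 below and 0 called, with a median of -0.079 beside 0.002 over all genes.

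Inflammatory genes known to be repressed by glucocorticoids were not called in NEC_Severe against CON over all batches. Of 25 listed genes 16 were tested, 12 of them above 0 and 4 below. Their median was 0.276 beside -0.045 over all genes, and 0 were called beside 2.09% of all genes. IL1A, which encodes interleukin-1 alpha, had the smallest p (0.99 ± 0.33, edgeR adjusted p = 0.0901). Values ran from -0.97 for CXCL10 to 1.496 for CCL3L1. In NEC_Mild the split was also 12 above and 4 below, with a median of 0.327 and 0 called. Within batches the severe-minus-control values of this list differed. The median was -0.024 in batch 1 and 0.271 in batch 2, with 0 called in either. In batch 3, with its 2 severe piglets, the median was 0.726 and 2 of the 16 genes were called higher, beside 2.52% of all genes called.

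Around IRS2 and SGK1, 24 genes of the insulin, PI3-kinase and AKT pathway were tested, and in NEC_Severe 2 were higher and 0 lower: PIK3CG, the leukocyte PI3-kinase subunit (0.70 ± 0.18, edgeR adjusted p = 0.0292), and IGF2R, the mannose-6-phosphate receptor (0.68 ± 0.19, adjusted p = 0.0496). The list's median was 0.071. Around ANXA1, 7 other annexins were tested (no formyl peptide receptor gene was among the genes tested), of which ANXA5 was higher (0.73 ± 0.19, adjusted p = 0.0358) and 0 were lower, with a median of 0.27. Around DUSP1, 20 phosphatase and MAP kinase genes were tested, 6 above 0 and 14 below with a median of -0.106. DUSP22 was lower (-0.68 ± 0.18, adjusted p = 0.038). Beside these calls, 1.07% of all genes were called higher and 1.02% lower in NEC_Severe against CON. In NEC_Mild against CON and in all NEC against CON, 0 genes of these lists were called.

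**Figure D5:**
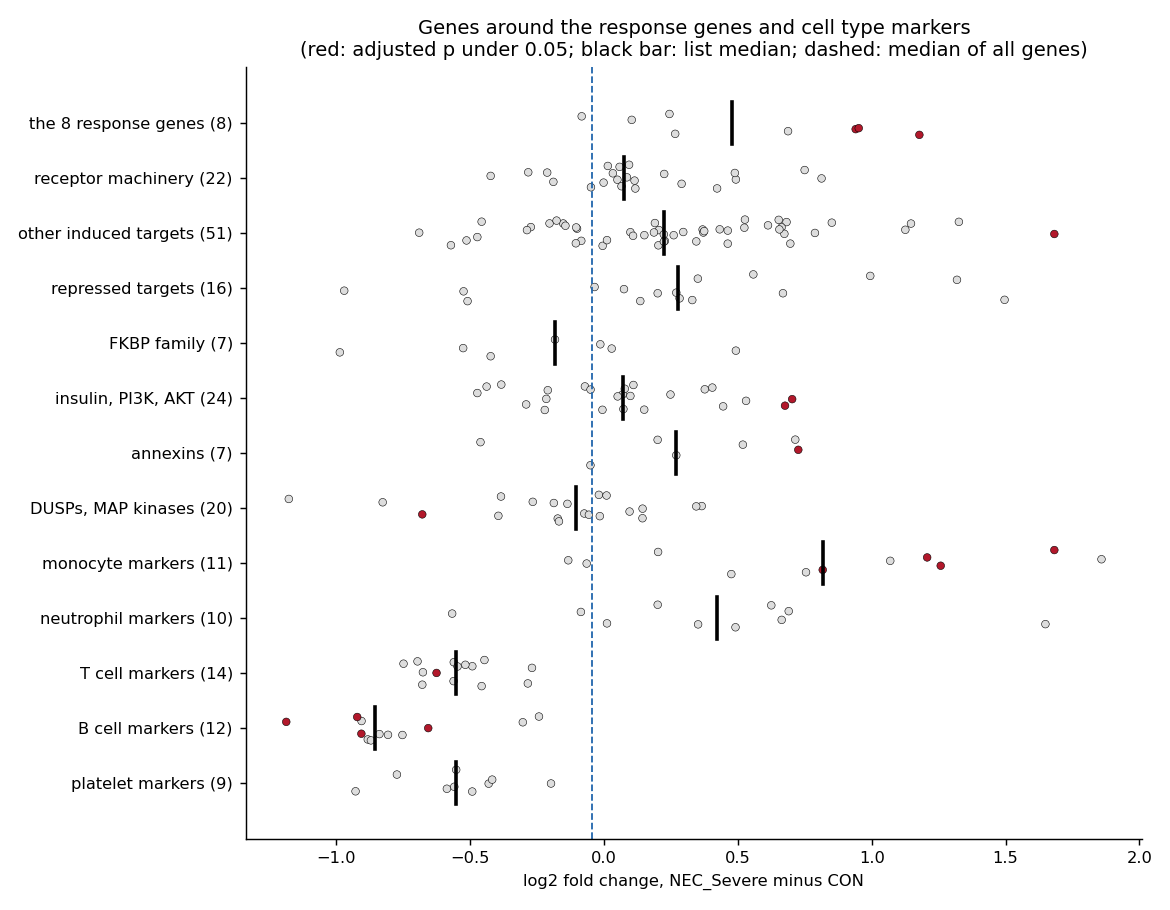
Log2 fold change of NEC_Severe minus CON for every tested gene (dot) of the lists around the response genes and of blood cell markers, with the list median (black bar), genes at an adjusted p under 0.05 in red and the median of all genes (-0.045) dashed; the number tested is in brackets. Monocyte markers (median 0.817) lay to the right and T cell (-0.555) and B cell (-0.855) markers to the left.

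Some markers of monocytes, B cells and T cells differed between severe and control piglets. That comparison called 1.07% of all genes higher and 1.02% lower. Of 11 monocyte markers tested, 4 were higher in NEC_Severe than in CON (VCAN 1.21, CD163 1.68, CSF1R 0.82 and FCN2 1.26) and 0 lower, with a median of 0.817. Their summed level ran from 107 to 544 CPM in CON (median 222), from 30.0 to 362 in NEC_Mild (median 214) and from 231 to 590 in NEC_Severe (median 391). Of 10 neutrophil markers 0 were called (median 0.421; smallest p for KCNJ15, 1.65 ± 0.53, adjusted p = 0.082), and their sum ran from 120 to 2640 CPM in CON, 46.1 to 2590 in NEC_Mild and 241 to 2600 in NEC_Severe, with medians of 406, 412 and 847. By batch, the median log2 difference of the neutrophil markers was -0.293 in batch 1 (3 above 0 and 7 below), 0.576 in batch 2 and 0.228 in batch 3. Of 14 T cell markers all lay below 0 and 1, LCK (-0.63), was lower. Of 12 B cell markers all lay below 0 and 4 were lower, among them SPIB (-0.92), CD79A (-0.66) and BLK (-0.91). The summed B cell level had a median of 87.1 CPM in CON and 42.6 in NEC_Severe, and the T cell sum 305 and 199. Of 9 platelet markers all lay below 0 and 0 were called (median -0.553; smallest p for CLU, -0.93 ± 0.30, adjusted p = 0.0809). Of 10 natural killer cell markers 0 were called (median 0.268; NKG7 0.74 ± 0.29, adjusted p = 0.152), as were 0 of 11 markers of red cells (median -0.09; AHSP -0.56 ± 0.48, adjusted p = 0.567). In batches 1, 2 and 3 the natural killer medians were -0.304, 1.048 and -0.735, and the red cell medians -0.794, -0.03 and 0.641. All 11 red cell markers lay below 0 in batch 1, and 10 lay above 0 in batch 3. The red cell sum ran from 5690 to 15800 CPM in severe and 17600 to 36400 in control piglets of batch 1. In batch 3 it ran from 17400 to 27800 and from 1980 to 22900. Of 6 eosinophil and basophil markers, 2 lay above 0 and 4 below, with a median of -0.253. The mast cell and basophil gene MS4A2 was higher (0.76 ± 0.19, adjusted p = 0.0253) and 0 were lower. In NEC_Mild against CON 0 markers were called, with 3 of 11 monocyte markers above 0 (median -0.216) and 10 of 12 B cell markers above 0 (median 0.362). In batch 1 the mild piglets had the lowest mean ANXA1 and FKBP5. The monocyte sum there ran from 30.0 to 180 CPM in mild, 107 to 332 in control and 231 to 405 in severe piglets. The 30.0 CPM was NEC_Mild replicate 1, and the other mild piglets of batch 1 had 131 to 180, within the control range. In batch 3 the sum ran from 64.1 to 362 CPM in mild, 112 to 544 in control and 391 to 590 in severe piglets. The part of these cell types in the differences of FKBP5, IRS2 and ANXA1 was not tested.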

How the data were processed

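Whole-blood mRNA-seq libraries of 39 piglets were used, 1 deposited table of raw read counts per piglet. Per the labels' protocols, RNA came from a MagMax blood kit, libraries from a VAHTS mRNA-seq kit, and paired-end reads from a HiSeq X instrument. Trim Galore, TopHat, HTSeq and DESeq2 were among the authors' tools, with Sscrofa11.1 as build, per the submitters' processing notes. Neither tool versions nor the strand setting were found in the labels. Reads aligned to several places (16.39 to 51.94% of each library's total) and ambiguous reads (mean 7.48%) were assigned to no gene, and stayed out of library sizes and tests with the other closing lines. Without a known strand setting, reads of overlapping genes cannot be told apart.

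From the counts, edgeR 4.0.16 (R 4.3.3) scaled libraries by TMM, kept genes by filterByExpr (minimum count 10) and ran quasi-likelihood F tests with robust dispersions, batch and sex as terms, and Benjamini-Hochberg adjustment over 10731 genes, called at 0.05. Severity was a factor with 3 levels; NEC against CON had its own fit, as had the differences within batches and those among control batches. Standard errors were taken as the absolute log2 change over the root of F. Tested on simulated data for NEC_Severe against CON with 10731 genes, it called 5.36% of genes changed by 0.5 log2, 50.7% at 1 and 87.3% at 2. The simulated counts held no differences by batch, sex or cell type, so these shares need not hold for the real libraries. Correlations used 100000 permutations within batches, or all 288 arrangements in NEC_Severe (Python 3.11.15, scipy 1.17.1). Replicate numbers follow accession order. The labels name separate piglets. Within groups, chi-square values between pairs of libraries were at least 8.53 per degree of freedom, so none was a repeat deposit of another in its group. Pairs of libraries from different groups were not checked.

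The genes and the gene lists were chosen with earlier results of these data known. Every tested member was in every comparison, but not every member's value is reported for each comparison. From each list, up to 4 called genes with the smallest p were named, or else the 1 with the smallest p. List extremes were named after their values were seen. List genes were named mainly for NEC_Severe against CON; some genes that this rule names are not reported here. Likeness named 6 genes over all piglets and 4 over controls. Alternatives were DESeq2 1.42.0, its size factors, limma 3.58.1 voom with sample weights, other filters and terms, surrogate variables (sva 3.50.0), globin removal, and leaving out libraries or batches.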

Additional observations from a re-analysis of the deposited data

Results flagged for a closer look

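Of 56 groups of 4 to 10 piglets checked for a single far value, 2 had one; chance alone sets apart about 1 in 20 such groups. Among the 4 mild piglets of batch 1, replicate 1 had the lowest IRS2 level, 3.81 CPM, while the others began at 5.86 CPM, so that the gap took up 0.881 of the group's range. Among the 5 controls of batch 2, replicate 10 had the lowest NR3C1 level, 0.918 CPM, while the others began at 6.22 CPM (0.747 of the range). Without CON replicate 10, the calls of FKBP5 (0.94), IRS2 (1.12) and ANXA1 (1.03) in NEC_Severe against CON held.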

How the results depend on the processing

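Of the 8 genes, 3 were called in NEC_Severe against CON. The number was 1 without batch and sex terms, 0 with surrogate variables, 0 without batch 1, 0 without batch 2, and 0 to 3 when 1 piglet was left out, with 0 without NEC_Severe replicate 2 and 1 without replicate 1. It was 2 with the title number in place of batch and 2 without the 4 BKDL controls, where ANXA1 was lost (adjusted p = 0.0607 and 0.0793). Without batch 1, FKBP5 was at 0.70 (adjusted p = 0.212), IRS2 at 0.77 (0.45) and ANXA1 at 0.88 (0.304). Without batch 2, they were at 1.10 (0.0689), 1.19 (0.147) and 0.95 (0.189). Without batch and sex terms, IRS2 was at 1.34 (0.0583) and ANXA1 at 0.90 (0.0725), all by edgeR. Fewer piglets were tested without a batch; otherwise the cause was not tested. Over the leave-one-out fits, FKBP5 ranged from 0.81 to 1.02, IRS2 from 1.06 to 1.37 and ANXA1 from 0.85 to 1.05. In NEC_Severe against NEC_Mild, where 0 were called, DESeq2 called 1, voom 3, and edgeR without batch 3 called 2. The count of all genes called there was 12. It ranged from 0 (without batch 1) to 839 (voom) under the alternatives other than leaving out 1 piglet. The count of members called stayed at 0 for NEC_Mild against CON, NEC against CON, males against females and the tests between batches, under the alternatives run for each. The count of all genes called in NEC_Severe against CON, 224, ranged from 12 (without NEC_Severe replicate 2) to 721 (without replicate 9) in the leave-one-out fits, and from 0 (without batch 1) to 1704 (voom) under the other alternatives.

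Signs turned only for differences that were not called. In NEC_Severe against CON, KLF9 was 0.0387 with voom, 0.0933 without batch and sex terms, 0.012 without batch 1 and 0.0795 without batch 3. DUSP1 was -0.046 with surrogate variables and -0.2774 without batch 1. NR3C1 was -0.3118 and -0.0137 under the same settings. ZBTB16 was -0.2008 with surrogate variables. SGK1 was -0.2499 with surrogate variables, -0.0655 without the BKDL controls and -0.0722 without batch 3. In NEC_Mild against CON, FKBP5 was -0.0925 with voom, -8e-04 without the filter, -0.0187 without batch and sex terms, -0.3278 with surrogate variables, -0.1305 without the BKDL controls and -0.4055 without batch 3. ANXA1 was -0.086 with voom, -0.0196 with surrogate variables, -0.0913 without the BKDL controls and -0.5096 without batch 3. KLF9 was 0.0145 without the sex term and 0.0459 without batch 1, where DUSP1 was 0.0087 and SGK1 0.1527. In NEC_Severe against NEC_Mild, KLF9 was 0.0737 with voom, 0.0327 without the filter, 0.1949 without batch and sex terms, 0.0659 with the title number and 0.28 without batch 3. ZBTB16 was 0.0977 without batch and sex terms. SGK1 was -0.1734 with surrogate variables and -0.1306 without batch 1, where DUSP1 was -0.2862. NR3C1 was 0.2806 without batch 3. In NEC against CON, DUSP1 was -0.0234 with voom, -0.0128 with the title number and -0.1361 without batch 1. FKBP5 was -0.0028 and SGK1 0.0198 with surrogate variables. SGK1 was 0.081 without batch 1 and 0.0299 without batch 2, and KLF9 0.0279 without batch 1. The r of FKBP5 with SGK1 in NEC_Severe was 0.006 with DESeq2 size factors.

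Leaving out 1 piglet also turned signs. In NEC_Severe against CON, KLF9 ranged from -0.191 to 0.0783 and SGK1 from -0.0808 to 0.2865. In NEC_Mild against CON, FKBP5 from -0.0846 to 0.089, ANXA1 from -0.0343 to 0.183 and KLF9 from -0.1493 to 0.0351. In NEC_Severe against NEC_Mild, KLF9 from -0.1163 to 0.1576 and NR3C1 from -0.405 to 0.0054. In NEC against CON, DUSP1 from -0.0563 to 0.0921 and SGK1 from -0.1888 to 0.0857. ZBTB16 has no value under the filter of 1 CPM in 20 libraries, which it did not pass. No paired analysis was possible because replicate numbers follow accession order and pair no piglets. Leaving out piglets within batches and among controls was added after the data were seen. KLF9, ZBTB16 and IRS2 rest on few counts, which limits the precision of their values.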

Other observations

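Single libraries of each group were low in several of the genes at once, seen after the values were known. CON replicate 10 had 0.918 CPM of NR3C1, 0.918 of IRS2, 0.551 of KLF9 and 0.0367 of ZBTB16, which was the lowest of the controls for NR3C1 and KLF9, with FKBP5 at 21.0 CPM, above the control median of 15.4. NEC_Severe replicate 9 had the lowest NR3C1 (1.24 CPM), IRS2 (0.621), KLF9 (0.31) and ZBTB16 (0 counts) of the severe piglets, with FKBP5 at 31.4 CPM. NEC_Mild replicate 9 had the lowest IRS2 (1.33 CPM), KLF9 (0.531) and ZBTB16 (0.0884) and the highest FKBP5 (31.9) of the mild piglets. The neutrophil marker sum was 2640 CPM in CON replicate 10, 2590 in NEC_Mild replicate 9 and 847 in NEC_Severe replicate 9. High sums also occurred without low values. NEC_Mild replicate 7 had a sum of 2470 CPM and the highest IRS2 of the mild piglets (6.42). NEC_Severe replicate 4 had a sum of 2600 CPM and 5.26 CPM of IRS2. NEC_Severe replicate 9 and NEC_Mild replicate 9 had the fewest genes detected (10674 and 11642) and the highest globin share (66.16 and 67.13%) of their groups. The part of neutrophils or of library content in these values was not tested.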
